A study of Mus musculus with 4 samples.

Results

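Autophagy initiation genes were examined in RNA immunoprecipitation sequencing (RIP-seq) of mouse liver. The group holds 10 genes, taken by name: Ulk1, Ulk2, Rb1cc1, Atg13, Atg14, Atg2a, Atg2b, Wdfy3, Tfeb and Becn1. Every row of the deposited peak lists with 1 of these gene names was used, which gave 112 of the 33968 rows of the AAV-GFP list and 125 of the 41511 rows of the AAV-NAT10 list. In all, 8889 genes had a row in either list. The livers came from male C57BL/6 mice that received an adeno-associated virus (AAV) carrying GFP, as the control, or NAT10, the enzyme that acetylates cytidine in RNA to N4-acetylcytidine (ac4C). The labels give no age, dose, promoter or serotype for either virus. Their protocol text, unlike the titles, speaks of lean and db/db mice, and it does not settle whether the antibody bound a protein or ac4C. Each virus had 1 immunoprecipitated and 1 input library, 4 libraries in all and none repeated, so nothing was tested between the viruses and no spread between animals is known.

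Autophagy starts when the ULK complex, a protein kinase with its scaffold, is released from inhibition by mTORC1 during nutrient shortage. The ULK complex activates a lipid kinase complex built on beclin 1 and ATG14, whose product recruits further factors to the growing membrane, and ATG2 proteins carry lipid into it. In hepatocytes this route supplies amino acids during fasting and takes part in breaking down lipid droplets. TFEB is the transcription factor that switches on many autophagy and lysosome genes.

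The transcript starts of 5 members lay inside a listed piece, and their first 30 bases are shown because they are transcribed sequence within peaks (RefSeq, GRCm38.p6, the assembly of mm10; 5′ to 3′ on the gene's strand). A piece is 1 row of a peak list, and the pieces appear cut to exons. A piece cut to a first exon holds the start whichever bases of that exon were enriched. Coverage of a start therefore does not place the enrichment at these 30 bases. Capitals mark cytidines, the base that NAT10 acetylates.
Ulk1, chr5:110810052-110810081, minus strand: CCgaggCCCgggtgCCgCggatCttttgtt
Ulk2, chr11:61855063-61855092, minus strand: ggtagtCggCgCggagCggCCggCgCgCgC
Atg2b, chr12:105685212-105685241, minus strand: gaaCgCgCCaggagCgtgtCtCaggCggga
Atg14, chr14:47568405-47568434, minus strand: aCgtgaCtggCCCtgagCtCagatCatCat
Atg2a, chr19:6241668-6241697, plus strand: gtCCgggggCgCggCCtggCgCtgagagaa
The start of Atg13 and the 3 annotated starts of Tfeb lay in no piece of either list; that of Atg13 is shown because it has the most cytidines of these.
Atg13, chr2:91710563-91710592, minus strand: CatttCCtCCgtagCgCtCtaCCtCCCCaC
The 5 covered starts held 9, 10, 8, 9 and 8 cytidines in the order shown, against 15 in Atg13, 6, 10 and 7 in the Tfeb starts and a median of 8 (interquartile range 6 to 10) over the 32851 start windows of RefSeq. The repeat CNNCNNCNN, which has been described for ac4C sites, was searched on both strands. It was found on the gene's strand in none of the 5 covered starts, at 2 positions in Atg13, overlapping matches counted, and in 1 of the 3 Tfeb starts. Uncovered starts thus held both more and fewer cytidines than covered ones. On the other strand Ulk1 held 2 matches, Ulk2 5 and Atg2a 3, and the remaining covered starts none. Of all start windows, 32.1% held it on the gene's strand and 40.9% on the other. The same 5 members had their start covered in both lists, 5 of the 7 members with a start window, while 14.1% of such genes in AAV-GFP and 18.2% in AAV-NAT10 did.

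All 10 genes held a peak in the AAV-NAT10 list and 9 of them in the AAV-GFP list. The exception was Becn1. Among all genes with a peak in either list, 79.7% were in both, 16.1% in AAV-NAT10 alone and 4.29% in AAV-GFP alone, so the split of the members was close to that of the lists. The members were proposed with the peak lists known, and their presence is therefore a description. Covered length means the piece lengths of a gene added up. Of the 9 shared members, 8 had the greater covered length in AAV-NAT10 and 1, Ulk2, in AAV-GFP. Over all 7081 shared genes the shares were 58.8% and 27.0%. The 8 became 6 without pieces shorter than 100 bases, a choice for which the share over all genes was not computed. The median difference, AAV-NAT10 minus AAV-GFP, was 146 bases over the 9 members and 93 bases over all shared genes, and the members ranged from -126 to 873. Library depth is unknown and moves every such count. In whole liver, fewer cells of a type and less RNA per cell cannot be told apart.

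**Figure D1:**
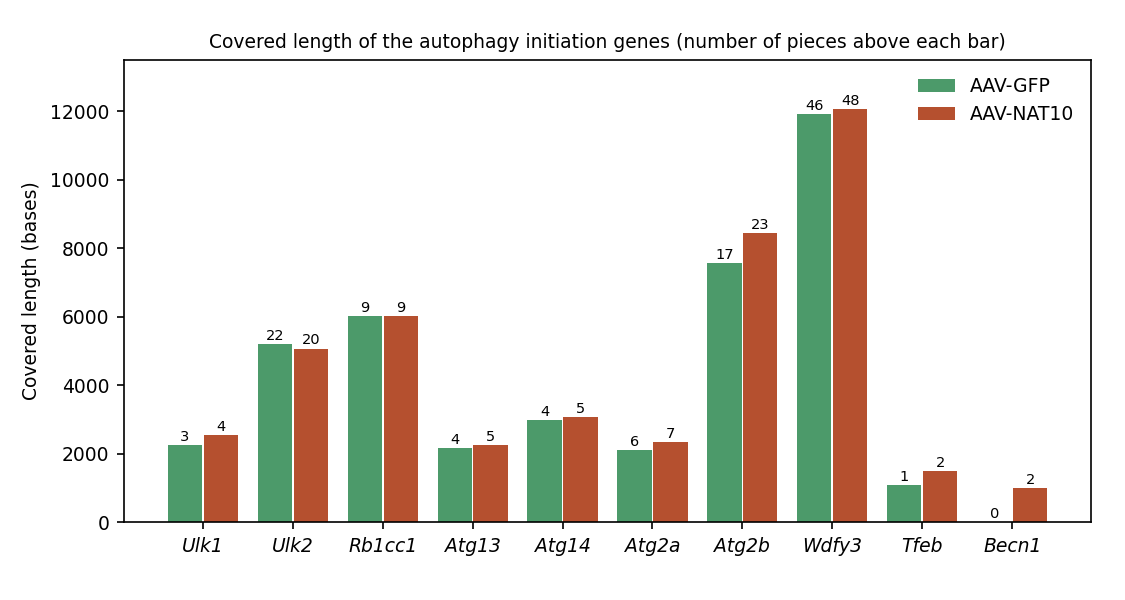
Covered length in bases (y axis) of each of the 10 genes (x axis) in the AAV-GFP and AAV-NAT10 peak lists, with the number of pieces printed above each bar. Wdfy3 is longest in both lists (11928 and 12074 bases), Becn1 has no bar in AAV-GFP, and each bar comes from 1 pair of libraries.

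In the ULK complex, the kinase gene Ulk1 held 3 pieces over 2261 bases in AAV-GFP and 4 over 2530 bases in AAV-NAT10. Fold enrichment is the peak caller's linear ratio over background, as the authors deposited it, and was 11.5, 11.7 and 15.7 for the AAV-GFP pieces of Ulk1 from low to high coordinate. In AAV-NAT10 the same 3 pieces had 14.8, 9.12 and 16.6. Ulk1 stood higher by fold than by number of pieces: its median fold ranked at percentile 97.9 of the genes in AAV-GFP and 98.0 in AAV-NAT10, while its number of pieces was at percentiles 56.9 and 62.9. Folds of the lists are set side by side only, since they do not measure a change. The piece found in AAV-NAT10 alone lay at chromosome 5, 110790212 to 110790480 (mm10), with a fold of 12.1. Its score, which is log10 of the p-value multiplied by -10, was at 3100. Scores at or above 3100, the ceiling, have no reliable order.

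Ulk2, the related kinase, had many more pieces than Ulk1. It held 22 pieces over 5194 bases in AAV-GFP and 20 over 5068 in AAV-NAT10, and was the only member with more pieces and more covered bases in AAV-GFP. Its folds ran from 4.52 to 20.7 (median 9.64) in AAV-GFP and from 6.22 to 18.7 (median 12.0) in AAV-NAT10. All 20 AAV-NAT10 pieces had the same borders as AAV-GFP pieces. The 2 pieces left over in AAV-GFP were short and of modest score: 33 bases at chromosome 11, 61841299 to 61841331 (fold 7.42, score 141), and 93 bases at 61853266 to 61853358 (fold 5.46, score 65.2). The difference of -126 bases is the length of these pieces. It became 562 bases with equal numbers of top peaks and 573 with only peaks at or above the median fold of their list.

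Rb1cc1 encodes FIP200, the large scaffold of the ULK complex. It held 9 pieces in each list, which added up to 6019 bases (AAV-GFP) and 6023 (AAV-NAT10). All 9 overlapped their counterparts, 7 with identical borders. In AAV-GFP the folds lay between 5.82 and 10.6 (median 8.08), and in AAV-NAT10 between 5.96 and 15.0 (median 7.46). The highest AAV-NAT10 fold belonged to the piece at the high-coordinate end of the gene (chromosome 1, 6274198 to 6276443), whose AAV-GFP counterpart, ending at 6276406, had 10.6. The difference was 4 bases, with scores of at least 100 it was -55, and with only peaks at or above the median fold of their list it was 1727. Rb1cc1 was the only shared member with the same number of pieces in both lists.

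Atg13, the adaptor that links ULK kinases to FIP200, held 4 pieces over 2160 bases in AAV-GFP and 5 over 2242 in AAV-NAT10. The AAV-GFP folds were 6.21, 8.79, 5.70 and 7.47 from low to high coordinate, and the same pieces had 9.34, 10.6, 5.80 and 8.81 in AAV-NAT10. The remaining piece, 82 bases at chromosome 2, 91695918 to 91695999, had fold 7.54 and score 248. Most of the covered length, 85.7% in AAV-GFP and 82.6% in AAV-NAT10, lay in the long piece at the low-coordinate end. The difference of 82 bases was 0 without pieces shorter than 100 bases and 1934 with only peaks at or above the median fold, since the long piece then counts in AAV-NAT10 alone.

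The lipid kinase complex was represented by Atg14 and Becn1. Atg14, the subunit that directs the complex to the site of autophagosome formation, held 4 pieces over 2968 bases in AAV-GFP, with folds of 6.06, 9.09, 6.20 and 4.65 from low to high coordinate. In AAV-NAT10 these pieces had folds of 9.17, 7.61, 7.42 and 6.05, and a further piece of 91 bases (chromosome 14, 47545791 to 47545881) had the highest, 9.75. The covered length there was 3059 bases, a difference of 91, which was 0 without pieces shorter than 100 bases, 340 with scores of at least 100 and 2580 with only peaks at or above the median fold. The last of the shared pieces is the one that holds the printed start of Atg14.

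Becn1 encodes beclin 1, the regulatory subunit of the same complex, and had the lowest median fold, highest fold and covered length of the members in AAV-NAT10, though its highest score was above that of Tfeb. It held no piece in AAV-GFP. In AAV-NAT10 it held 2, over 1000 bases. The short one, 68 bases at chromosome 11, 101299009 to 101299076, had fold 5.09 and score 104. The long one, 932 bases at 101288050 to 101288981, had fold 4.12, at percentile 12.4 of that list, and score 491. Of its 932 bases, 724 lay within the RefSeq gene Becn1 and 652 within Cntd1, a neighbour that overlaps it and has no piece of its own in either list. The lists give no strand, so most of the Becn1 coverage cannot be assigned to Becn1 alone.

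The ATG2 proteins, bridge-like lipid transporters, differed in coverage. Atg2a held 6 pieces over 2112 bases in AAV-GFP and 7 over 2334 in AAV-NAT10, with folds of 3.29 to 8.60 and of 6.40 to 15.1. The piece that holds its printed start had a fold of 8.22 in AAV-GFP. In AAV-NAT10 it had 15.1, the highest of Atg2a in that list. The piece found in AAV-NAT10 alone (chromosome 19, 6245459 to 6245693) had fold 11.8 and score 3100. With the shifted border of another piece, it makes up the difference of 222 bases, which was 676 with equal numbers of top peaks.

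Atg2b had a difference of 873 bases, larger than in the other shared members with all pieces counted. It was 1349 with equal numbers of top peaks and 1609 with only peaks at or above the median fold, where Atg14 (2580), Atg13 (1934) and Rb1cc1 (1727) had more. It held 17 pieces over 7577 bases in AAV-GFP and 23 over 8450 in AAV-NAT10. Each of the 17 had an overlapping piece in AAV-NAT10, 16 of them with identical borders. The 6 others, found in AAV-NAT10 alone, were 83 to 195 bases long and lay between pieces shared by the lists, not at the ends of the gene. Their folds were 9.63, 15.0, 10.3, 10.9, 8.47 and 8.02 from low to high coordinate, all above the list's median of 6.51. The highest lay at chromosome 12, 105635685 to 105635879, with a score of 2370. The longest piece of Atg2b, 3765 bases at the low-coordinate end, had low folds of 4.73 and 6.30, so covered length and fold did not go together in this gene.

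**Figure D2:**
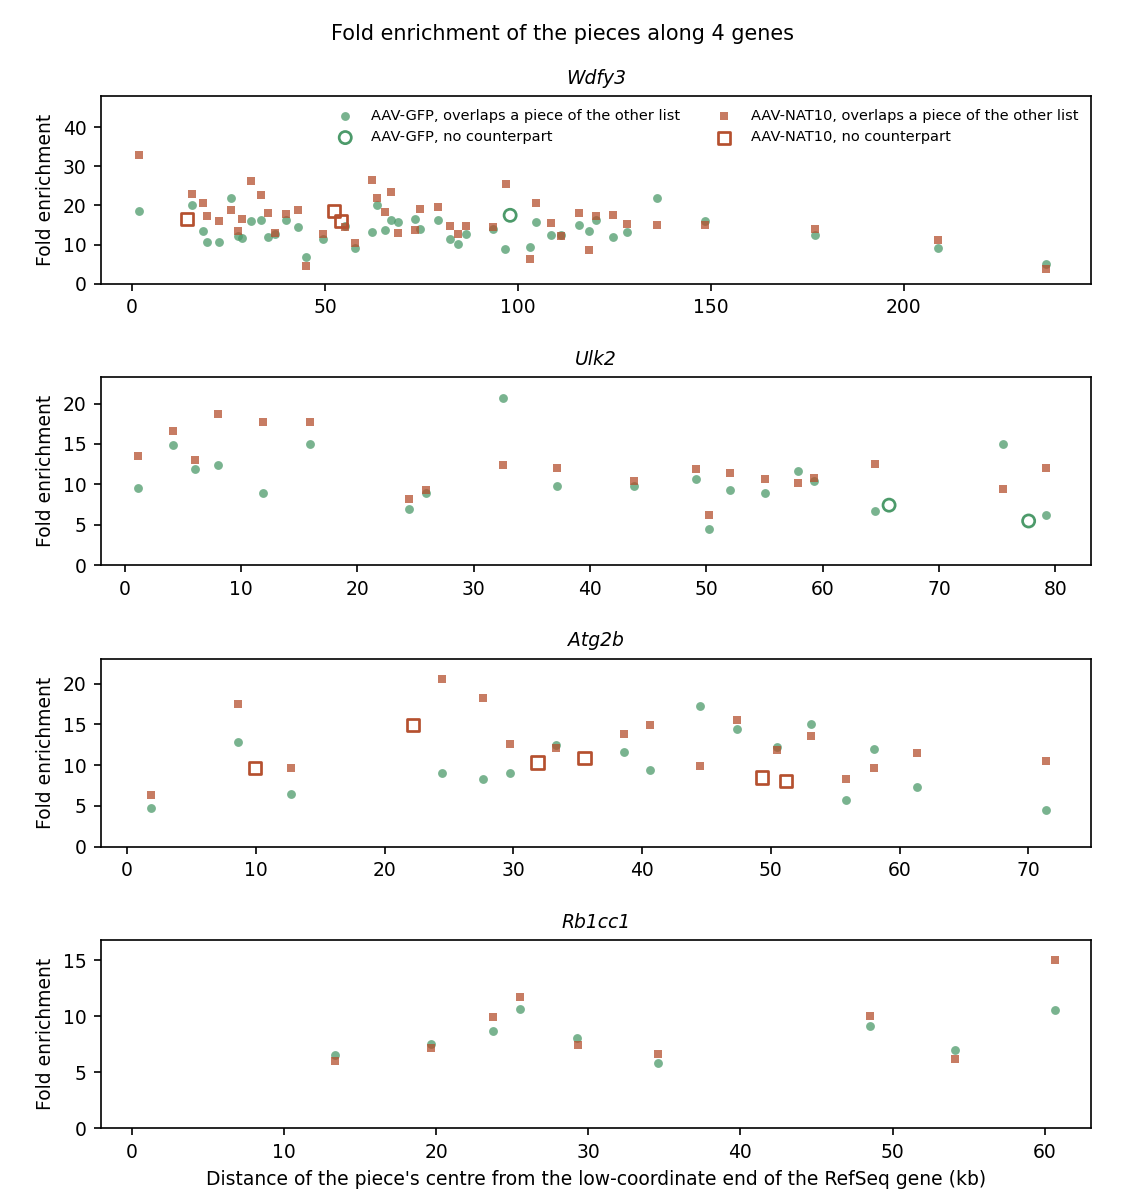
Fold enrichment (y axis, the authors' value) of each piece against the distance of its centre from the low-coordinate end of the RefSeq gene in kb (x axis), for Wdfy3, Ulk2, Atg2b and Rb1cc1; circles are AAV-GFP, squares AAV-NAT10, and open symbols have no overlapping piece in the other list. The 6 open squares of Atg2b lie within the gene, Ulk2 has 2 open circles, and Rb1cc1 has no open symbol.

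Wdfy3 encodes ALFY, a large adaptor that brings protein aggregates to the autophagy machinery, and had the most pieces and covered bases of the members, though these made up 4.99% and 5.05% of its long gene, less than in the other shared members except Tfeb. It held 46 pieces over 11928 bases in AAV-GFP and 48 over 12074 in AAV-NAT10, ranks 16 and 14 among all genes of the lists by number of pieces. Its folds ran from 4.98 to 21.9 (median 13.5) in AAV-GFP and from 3.62 to 33.0 (median 16.2) in AAV-NAT10, and its highest fold ranked 56 and 13 among the genes. In AAV-NAT10 the highest fold belonged to the longest piece, 3329 bases at chromosome 5, 101832953 to 101836281, which had 18.7 in AAV-GFP and also touches the predicted gene Gm20548. The difference of 146 bases ranged from 8 to 472 under the other choices of peaks. The lowest fold of each list belonged to the last piece toward the high-coordinate end, 102069596 to 102069921. Of the 46 AAV-GFP pieces, 45 overlapped an AAV-NAT10 piece, 44 with identical borders. The 3 pieces found in AAV-NAT10 alone, at 101847103 to 101847199, 101885131 to 101885313 and 101886961 to 101887070, had folds of 16.6, 18.5 and 16.0. The piece found in AAV-GFP alone, at 101930828 to 101931005, had fold 17.5 and score 1377. Of the 3818 AAV-GFP pieces without a counterpart in shared genes, 12 (0.314%) had a fold at least that high. Of the 9660 such pieces of AAV-NAT10, 23 (0.238%) had a fold of at least 18.5, the highest of the 3.

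Tfeb had few pieces, of low fold. In AAV-GFP it held 1, of 1085 bases at chromosome 17, 47791335 to 47792419, with fold 5.26 and score 139. In AAV-NAT10 the same piece had fold 5.44 and score 372. A second piece of 397 bases, at 47785800 to 47786196, had fold 6.43 and score 289 and began 56 bases after 1 of the 3 annotated starts of Tfeb. All Tfeb folds lay below the median fold of their list, 6.33 in AAV-GFP and 6.51 in AAV-NAT10.

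**Figure D3:**
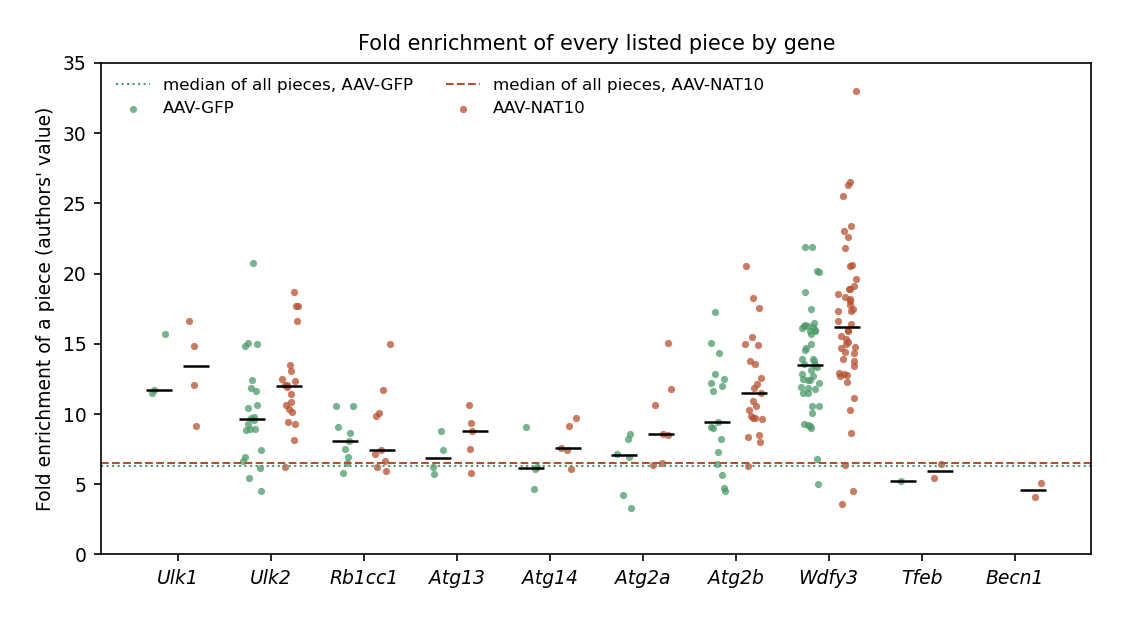
Fold enrichment (y axis, the authors' value, linear) of every piece of the 10 genes (x axis); each point is 1 piece, black bars are the medians per gene and list, and the dotted and dashed lines are the medians of all pieces, 6.33 in AAV-GFP and 6.51 in AAV-NAT10. Ulk1, Ulk2, Rb1cc1, Atg2a, Atg2b and Wdfy3 lie mostly above these lines, and Tfeb and Becn1 below them.

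Pooled over genes, member pieces were of high fold within their lists. In AAV-GFP their median fold was 10.6 (interquartile range 7.94 to 13.9) and in AAV-NAT10 12.3 (9.30 to 16.4), against 6.33 (4.88 to 8.43) and 6.51 (4.87 to 8.90) over all pieces. Wdfy3 contributed 46 of the 112 and 48 of the 125 pieces, with medians of 13.5 and 16.2. Ulk2 contributed 22 and 20 and Atg2b 17 and 23, so the pooled medians mostly describe these genes. By gene, the median fold ranged from percentile 31.9 of all pieces (Tfeb) to 96.3 (Wdfy3) in AAV-GFP. In AAV-NAT10 it ranged from 20.1 (Becn1) to 97.7 (Wdfy3). At the score ceiling stood 8 of the 112 AAV-GFP pieces (7.14%, exact 95% interval 3.13 to 13.6) and 28 of the 125 AAV-NAT10 pieces (22.4%, 15.4 to 30.7). Over all pieces the shares were 4.56% and 6.96%. Without Wdfy3 the members had 3 of 66 (4.55%, 0.947 to 12.7) and 13 of 77 (16.9%, 9.31 to 27.1). The intervals cover counting error only, and pieces of 1 gene are not independent.

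The member pieces largely coincided between the lists. Of the AAV-GFP pieces, 109 of 112 (97.3%, 92.4 to 99.4) overlapped an AAV-NAT10 piece by at least 1 base, and 109 of 125 AAV-NAT10 pieces (87.2%, 80.0 to 92.5) overlapped an AAV-GFP piece. Over all pieces the shares were 87.4% and 71.5%. In 104 cases both borders were identical, 92.9% of the AAV-GFP and 83.2% of the AAV-NAT10 member pieces, against 73.6% and 60.2% over all pieces. Pieces appear cut to exons, so identical borders or overlap can mean only that the same exon was listed in both. Most member pieces had high scores, and overlap was more frequent among high scores in general. Among the highest 25% of scores in its list, the overlapped share was 73 of 74 member pieces (98.6%) against 95.9% of all in AAV-GFP, and 82 of 92 (89.1%) against 91.9% in AAV-NAT10.

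The 16 member pieces found in AAV-NAT10 alone were not weak within that list. They belonged to Atg2b (6), Wdfy3 (3), Becn1 (2), Ulk1, Atg13, Atg14, Atg2a and Tfeb, and 3 of them, in Ulk1, Atg2a and Wdfy3, were at the score ceiling. Their median fold was 10.0 and 13 of them were above the list's median fold, as were 110 of all 125 AAV-NAT10 member pieces. Over all genes, the 11829 AAV-NAT10 pieces without a counterpart had a median fold of 4.92. Of them, 2571 were above the list's median fold and 1.37% were at the ceiling. In shared genes, which leave out Becn1, these were 9660 pieces with a median of 5.05 and 1.31% at the ceiling. The overlapped member pieces of AAV-NAT10 had a higher median fold than the 16, 12.7, and 22.9% at the ceiling against 18.8%. A fold at least as high as that of the Ulk1 piece occurred in 2.48% of the 9660 pieces, and at least as high as the best of Atg2b in 0.901%. The Atg2b piece was picked as the highest of 6, so its share does not describe a typical piece of that gene. The remaining 3 of the 16, in Tfeb and Becn1, lay below the list's median fold.

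The longest piece of a member usually reached an end of its gene. Among the 7 members whose strand is in the RefSeq table, Ulk1, Ulk2, Atg13, Atg14, Atg2a, Atg2b and Tfeb, it ended within 50 bases of the 3′ border of the gene in all 7, in both lists. Of all genes with a known strand, 46.1% in AAV-GFP and 47.0% in AAV-NAT10 had their longest piece there. These end pieces were 1740 bases long in Ulk1, 2242 in Ulk2, 1852 in Atg13, 2251 in Atg14, 735 in Atg2a, 3765 in Atg2b and 1085 in Tfeb, with the same borders in both lists. The longest pieces of Wdfy3 and Rb1cc1 likewise lay at 1 end of the gene. The end piece made up 77.0% of the covered length of Ulk1 in AAV-GFP, 75.8% of that of Atg14 and 85.7% of that of Atg13, but 43.2% in Ulk2 and 34.8% in Atg2a. Across the 7, a piece reached the 3′ border in 7 and the 5′ border in 2, Ulk1 and Atg14. The covered starts of Ulk2, Atg2a and Atg2b lay more than 50 bases inside the RefSeq 5′ border, so they are not counted here. Over all genes with a known strand, the 3′ border was reached in 51.8% (AAV-GFP) and 52.4% (AAV-NAT10) and the 5′ border in 8.64% and 12.3%. Exon and untranslated region borders were not used here, and the fold of a piece may be that of a wider peak it was cut from.

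Other autophagy genes were counted in 7 lists with 119 genes. Of these, 77 held a peak in both peak lists, 19 were found in AAV-NAT10 alone and 1 in AAV-GFP alone, and 22 held none. Of the 97 genes with a peak, these numbers compare with 79.7%, 16.1% and 4.29% of all genes with a peak. The 77 shared genes had the greater covered length in AAV-NAT10 in 55 cases and in AAV-GFP in 18, with 4 equal and a median difference of 158 bases, against 58.8% and 27.0% and a median of 93 bases over all shared genes.

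Of 16 further initiation genes, 12 were shared and 2 were found in AAV-NAT10 alone. Nrbf2, a partner of the ATG14 complex, was covered there over 1563 bases with a highest fold of 4.27, and Atg101, which stabilises ATG13, over 667 bases with fold 3.77 and score 87.7. Pik3c3, the catalytic subunit of the lipid kinase, had 259 covered bases in AAV-GFP against 1319 in AAV-NAT10. Uvrag, which replaces ATG14 in another form of the complex, had 5943 and 4870; values are given in that order from here on. Wdr45b and Wipi2, which bind the lipid product, were covered over 476 and 1959 bases and over 3711 and 3444 bases. Pik3r4 and Ambra1, also partners of beclin 1, had 5524 and 6531 bases and 5470 and 5762, so of the partners given here Uvrag alone was greater in AAV-GFP.

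Of 16 genes of LC3 conjugation, 10 were shared and 6 held no peak. The 6 were Atg10 and all 5 listed genes of the Atg8 family, Map1lc3a, Map1lc3b, Gabarap, Gabarapl1 and Gabarapl2, whose products coat the autophagosome. Sqstm1, the cargo receptor that binds them, had none either. The Atg8 family and Sqstm1 are shorter genes than the initiation genes: the family spans 1710 to 12213 bases in RefSeq and Sqstm1 10669, against 14029 (Becn1) to 239263 (Wdfy3) for the members. Of protein-coding genes in RefSeq, 37.6% held a peak in either list. Split by genomic length into 4 classes of 5475 genes, the shares were 11.4%, 36.8%, 49.6% and 52.6% from short to long, and the part of length in this contrast was not tested. Among the shared genes, Atg3, the E2-like enzyme, was covered over 948 and 128 bases, Atg16l1 over 6075 and 5434, Atg4c over 1745 and 2444, and Atg5 over 1959 and 2352.

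Of 18 cargo receptors, 13 were shared and Ccpg1, a receptor for endoplasmic reticulum, and Fkbp8, a mitochondrial one, were found in AAV-NAT10 alone (583 and 482 bases). Tex264 was covered over 222 and 1643 bases, Calcoco1 over 103 and 957, Ncoa4, the ferritin receptor, over 2144 and 111, and Tax1bp1 over 2327 and 2091. Of 14 genes of autophagosome fusion, 12 were shared and Rab7, the late endosome GTPase, was found in AAV-NAT10 alone (1710 bases). Vps18 was covered over 1473 and 3718 bases, Snap29 over 2684 and 3039, Vps41 over 2304 and 1944, and Epg5, a tether with 35 and 33 pieces, over 8681 and 8368.

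Upstream of the ULK complex, 11 of 15 kinase genes and regulators were shared. Stk11 (1105 bases), Akt1s1 (830) and Prkag1 (684) were found in AAV-NAT10 alone. Mtor, the kinase that inhibits ULK1, was covered over 5338 and 5091 bases and Prkaa1, a catalytic subunit of AMPK, which activates ULK1, over 3924 and 3841. Rptor was covered over 5023 and 5837 bases and Tsc2 over 2934 and 3492.

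Of 14 relatives and regulators of Tfeb, 9 were shared and Ywhaz, a 14-3-3 protein (2875 bases), and Tfec (607 bases, score 53.2) were found in AAV-NAT10 alone. Mitf was covered over 2100 and 2939 bases and Ppp3r1, a subunit of the phosphatase that activates TFEB, over 2122 and 2412. Fnip1 and Flcn, which control TFEB through the lysosome, were covered over 6268 and 6059 bases and over 2180 and 2088. Of 26 lysosome and TFEB target genes, 10 were shared, 9 were found in AAV-NAT10 alone and 1, Lamp2, in AAV-GFP alone (2349 bases, fold 5.50, score at the ceiling). The 9 included Lipa, the lysosomal acid lipase (2335 bases), Psap (1343) and Hexa (999). Gaa was covered over 436 and 2074 bases, Atp6v1a over 2502 and 3828, and Npc1 over 2597 and 795. Of the 20 with a peak, the 9 in AAV-NAT10 alone stand beside 16.1% of all genes with a peak and 1 of the 10 initiation genes, and no difference was tested. The wider lysosome pathway annotated in the peak lists had a smaller share there. It held 85 genes with a peak, 57 in both lists, 24 in AAV-NAT10 alone and 4 in AAV-GFP alone.

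**Figure D4:**
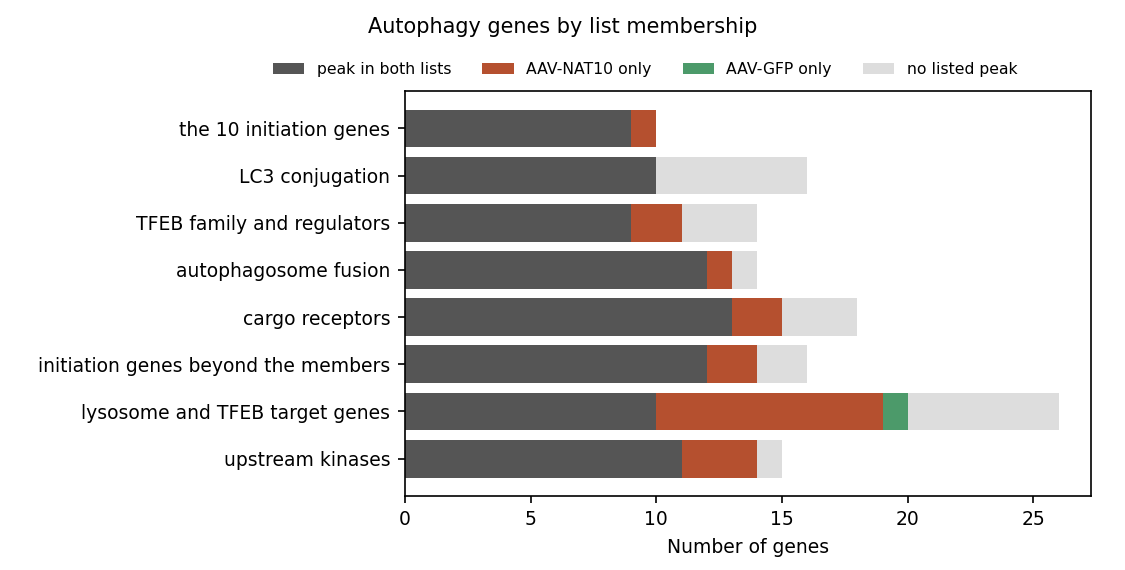
Number of genes (x axis) in the 10 initiation genes and 7 other autophagy lists (y axis), divided by whether a gene held a peak in both peak lists, in AAV-NAT10 alone, in AAV-GFP alone or in neither. The initiation genes have no gene without a peak, and the lysosome list has the most genes in AAV-NAT10 alone (9 of 26).

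The lists' own pathway annotation placed 20 genes with a peak in regulation of autophagy, 19 of them in both lists. The remaining 1 was Becn1, so the members Ulk1, Ulk2, Atg13 and Atg14 were among the 19. Rb1cc1, Atg2a, Atg2b, Wdfy3 and Tfeb do not carry this annotation.

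Nat10 itself held 9 pieces over 2690 bases in AAV-GFP, none at the score ceiling, and 10 pieces over 2867 bases in AAV-NAT10, 9 of them at it. Over all pieces 4.56% and 6.96% were at the ceiling. Each peak is set against the input of the same virus, so these values cannot check which libraries received NAT10. Of 9 hepatocyte markers only Apob and Cps1 held a peak, both in AAV-NAT10 alone, and albumin (Alb), Ttr and Apoa1 held none. Peaks are enrichment over input, so their absence does not show that a gene is not expressed. Other liver cell types were also represented: 6 of 6 endothelial, 4 of 5 Kupffer cell, 5 of 5 stellate cell, 3 of 5 cholangiocyte and 2 of 5 erythroid or lymphocyte markers held a peak in either list. Over all protein-coding genes of RefSeq the share was 37.6%, from 11.4% among the shortest 5475 to 52.6% among the longest 5475. The part of gene length in these marker counts was not tested. Summed over the markers, the covered length in AAV-GFP and AAV-NAT10 was 27907 and 28087 bases for endothelial, 4708 and 6788 for Kupffer cell, 14054 and 15018 for stellate cell, 9495 and 11647 for cholangiocyte and 2949 and 3655 for erythroid and lymphocyte markers. Gene by gene the direction varied: the median difference of shared markers was -93.5 bases for endothelial (4 of 6 greater in AAV-GFP), -791 for stellate cell (2 of 3), -50 for the 1 erythroid or lymphocyte marker, and 884 and 1217 for Kupffer cell and cholangiocyte markers. Markers found in 1 list alone are not in these medians. In AAV-NAT10 these were Pdgfrb (1537 bases) and Col1a1 (283) for stellate cell and Alas2 (756) for erythroid or lymphocyte. In AAV-GFP they were Vsig4 (688) for Kupffer cell and Spp1 (282) for cholangiocyte. The part of these cell types in the values of the initiation genes was not tested.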

How the data were processed

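RIP-seq peak lists of mouse liver were used, 1 per virus, each of an immunoprecipitated library against its input. The protocol in the labels describes ribosomal RNA removal and 150 bp paired-end reads. Positions are on mm10, the build in the submitters' processing notes. Peaks have MACS names, per the file headers; neither its version nor an aligner or read filter is given in the sources used here. The fold enrichment deposited by the authors is a linear ratio per peak. The deposited score is -10 times log10 of the p-value of the peak, at least 50 in both lists. The authors' FDR was read as percent, since its values pass 1 (0 to 18.2 in AAV-GFP, 2.44 to 40 in AAV-NAT10). Starts count from 0 in the lists and from 1 here.

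Rows were taken by gene name; for list genes not found by symbol, the RefSeq gene ID was used (Retreg1 is Fam134b in the lists). Pieces, covered lengths, overlaps of at least 1 base and exact (Clopper-Pearson) 95% intervals were computed with Python 3.11.15, pandas 2.3.3 and scipy 1.17.1, and the overlap code was tested on simulated peaks. All 10 members and Nat10 were named. In each other list the rule named up to 3 genes found in 1 peak list alone, by covered length, and up to 2 shared genes with the largest difference toward each virus. Genes named as having no peak, Pik3r4, Ambra1 and the pathway counts were added after values were seen. The members and lists were chosen with earlier results of these data known. Read counts and depth are unknown, and with 1 library a group no test was made. Start sequences come from RefSeq, which held a start window for 7 of the 10 members.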

Additional observations from a re-analysis of the deposited data

How the results depend on the processing

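No paired analysis was possible because each group is 1 library. The alternatives gave 36 values of the member counts and overlap shares, and 32 of them stayed close to those reported (counts within a factor of 1.5, shares within the counting interval). The exception was the number of members covered over more bases in AAV-GFP, 1 as reported, which was 0 with the 16984 highest-scoring peaks of each list, 0 with only peaks at or above the list's median fold, 0 without pieces shorter than 100 bases and 2 with scores of at least 100. A factor of 1.5 is wide for so small a count. The number covered over more bases in AAV-NAT10 thus counted as close, though it fell from 8 to 6 without pieces shorter than 100 bases. With scores of at least 100 it was 7. The difference of Ulk2 (-126 bases) turned to 562 with the highest-scoring peaks and 573 with peaks at or above the median fold, and that of Rb1cc1 (4 bases) to -55 with scores of at least 100; fewer pieces enter each. Of the 37 member differences under alternatives, 16 moved by more than a factor of 1.5 without turning, and their cause was not tested. Tfeb kept no peak in either list under either of the stricter choices and Becn1 none at or above the median fold, so these gave no value. A missing piece is one below the authors' threshold at an unknown depth.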
